A study of Mus musculus with 5 samples.

Results

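To examine how the promoters of a gene group that nearly every cell needs behave along the path to blood, the nuclear genes of oxidative phosphorylation (OXPHOS) were followed through 5 maps of DNaseI hypersensitive sites (DHSs). They were taken by symbol from the protein-coding genes of RefSeq, as all genes whose names begin with Ndufa, Ndufb, Ndufc, Ndufs, Ndufv, Uqcr, Sdh, Atp5 or Cox followed by 4, 5, 6, 7 or 8. This gave 100 of 21774 genes. Of these, 85 encode subunits, 12 encode assembly factors whose names share the prefixes, 2 (Ndufb4b and Ndufb4c) are copies of Ndufb4, and 1 (Cox7a2l) encodes a relative of a complex IV subunit. Ndufa4 and its relative Ndufa4l2 were placed with complex IV, where the NDUFA4 protein is found.

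Cells were differentiated in culture from mouse embryonic stem (ES) cells, strain 129, in which GFP reports the mesodermal gene Brachyury (Bry). The maps represent mesoderm (MES; Bry:GFP+, Flk1-), hemangioblasts (HB; Bry:GFP+, Flk1+), hemogenic endothelium (HE; Bry:GFP+, Tie2+, cKit+, CD41-), then CD41+ hematopoietic progenitors (HP) and CD11b+ macrophages (MAC). Each stage was 1 list of sites, which for MAC carries a label naming 2 replicates together, so that no replicate error and no test between stages could be given, and differences are described against the same count over all protein-coding genes. The sites are intervals in steps of 100 bp with no height or read count, the lists do not give the read depth behind them (the study's own read totals were not used here), and the lack of a site says only that none was listed. All 5 populations derive from a single ES cell line.

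OXPHOS couples the oxidation of NADH and succinate to the synthesis of ATP at the inner mitochondrial membrane. Complex I (NADH dehydrogenase) and complex II (succinate dehydrogenase) pass electrons to ubiquinone, complex III passes them on to cytochrome c, and complex IV (cytochrome c oxidase) hands them to oxygen, while complex V (ATP synthase) uses the proton gradient that complexes I, III and IV build. A few subunits are encoded by the mitochondrial genome, most by nuclear genes, and several subunits of complex IV exist in a widely used form and a form restricted to muscle, lung, testis or low oxygen.

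The lists held between 17734 sites (HP) and 37456 sites (MAC), with median widths of 800, 900, 1200, 900 and 600 bp from MES to MAC. Of 13 marker genes of the sorted populations, Itgam, Csf1r and Adgre1 had a promoter site only in MAC among the 5 lists, Tek and Cdh5 only in HE, T in MES and HB, and Itga2b, which encodes CD41, in HE and HP. The others were less specific: Mixl1, a mesodermal gene, had one in MES, HB and HE, and Kit, a sort marker of HE, and Etv2 in every stage but MAC. Kdr, which encodes Flk1, and Runx1 had one in all 5 stages. Gfi1b, listed as a progenitor marker, had none in HP and a site of 400 bp in MAC.

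Several OXPHOS promoters are shown here as background to the results, since they include the types of sequence met below. Each is the stretch of 250 bases before the start site of RefSeq (build GRCm38.p6, the primary chromosomes of which are those of mm10), written 5′ to 3′ along the gene's strand. Capitals mark matches, on either strand, to the letters of 7 motifs named for the factors or boxes known to have them: NRF1 (GCGCNTGCG), ETS (CCGGAAGT), YY1 (AANATGGCG), ERR (TNAAGGTCA), SP1 (GGGCGG), the CCAAT box by its own letters and the TATA box as TATAAA. The first 4 sequences are promoters with a DHS in all 5 stages and a match for NRF1, ERR or ETS, and the others are 2 pairs of a widely used and a muscle isoform of complex IV and the X-linked Cox7b.
Sdhd (chr9:50603850-50604099, - strand): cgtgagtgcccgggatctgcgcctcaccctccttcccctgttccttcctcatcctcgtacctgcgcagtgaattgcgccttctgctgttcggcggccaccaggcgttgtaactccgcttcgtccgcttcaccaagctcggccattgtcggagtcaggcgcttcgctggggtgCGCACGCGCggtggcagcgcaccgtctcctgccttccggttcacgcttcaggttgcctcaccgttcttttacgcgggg
Atp5g3 (chr2:73911327-73911576, - strand): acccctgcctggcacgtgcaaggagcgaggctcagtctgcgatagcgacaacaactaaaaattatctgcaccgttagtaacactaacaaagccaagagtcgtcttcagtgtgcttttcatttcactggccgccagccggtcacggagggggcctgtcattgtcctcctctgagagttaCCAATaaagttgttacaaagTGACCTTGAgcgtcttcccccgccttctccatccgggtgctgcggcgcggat
Uqcr11 (chr10:80406822-80407071, - strand): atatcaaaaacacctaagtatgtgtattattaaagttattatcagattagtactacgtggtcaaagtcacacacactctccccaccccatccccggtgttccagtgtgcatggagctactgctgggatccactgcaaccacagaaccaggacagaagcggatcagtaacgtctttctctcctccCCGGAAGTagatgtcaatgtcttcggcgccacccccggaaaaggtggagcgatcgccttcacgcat
Ndufs6 (chr13:73328483-73328732, - strand): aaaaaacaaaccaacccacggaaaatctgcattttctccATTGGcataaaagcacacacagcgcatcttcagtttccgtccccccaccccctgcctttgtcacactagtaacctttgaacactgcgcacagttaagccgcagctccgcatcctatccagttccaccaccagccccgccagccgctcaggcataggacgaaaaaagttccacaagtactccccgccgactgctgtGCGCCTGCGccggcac
Cox7a2 (chr9:79759854-79760103, - strand): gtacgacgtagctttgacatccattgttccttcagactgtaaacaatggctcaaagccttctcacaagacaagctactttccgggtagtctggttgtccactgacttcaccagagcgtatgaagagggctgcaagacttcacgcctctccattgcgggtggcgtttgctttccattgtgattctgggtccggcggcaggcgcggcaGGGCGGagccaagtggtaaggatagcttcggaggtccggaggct
Cox7a1 (chr7:30183921-30184170, + strand): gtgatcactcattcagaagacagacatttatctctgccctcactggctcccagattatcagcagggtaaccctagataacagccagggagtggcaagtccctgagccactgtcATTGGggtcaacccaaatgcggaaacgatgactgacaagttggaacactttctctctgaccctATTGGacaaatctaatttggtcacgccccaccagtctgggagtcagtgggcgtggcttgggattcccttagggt
Cox8a (chr19:7217617-7217866, - strand): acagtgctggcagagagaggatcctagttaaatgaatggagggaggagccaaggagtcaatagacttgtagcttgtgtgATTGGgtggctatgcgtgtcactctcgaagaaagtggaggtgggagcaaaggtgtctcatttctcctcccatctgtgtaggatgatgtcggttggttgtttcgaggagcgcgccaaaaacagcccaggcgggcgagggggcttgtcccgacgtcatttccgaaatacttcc
Cox8b (chr7:140900447-140900696, - strand): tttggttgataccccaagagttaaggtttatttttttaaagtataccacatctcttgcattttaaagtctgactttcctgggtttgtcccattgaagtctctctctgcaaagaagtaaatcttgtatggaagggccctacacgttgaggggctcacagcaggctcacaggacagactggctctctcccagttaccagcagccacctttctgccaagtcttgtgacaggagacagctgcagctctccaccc
Cox7b (chrX:106015450-106015699, + strand): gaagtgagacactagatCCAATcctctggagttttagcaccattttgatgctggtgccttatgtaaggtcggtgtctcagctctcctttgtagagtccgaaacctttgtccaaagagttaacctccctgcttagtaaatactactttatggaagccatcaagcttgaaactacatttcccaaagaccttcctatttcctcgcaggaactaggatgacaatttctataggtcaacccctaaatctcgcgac
The match in Sdhd is to NRF1, in Uqcr11 to ETS, in Cox7a2 to SP1 and in Cox8a and Cox7b to CCAAT. Atp5g3 has a match to CCAAT and to ERR, Ndufs6 to CCAAT and to NRF1, and Cox7a1 has 2 to CCAAT, while no letters are capital in Cox8b.

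Next, the presence of a promoter DHS, a site with its edge within 1 kb of any transcription start site (TSS) of the gene, was determined for each gene and stage. Most OXPHOS genes had one throughout. In MES 91 of the 100 genes had a promoter DHS, against 55.5% of all protein-coding genes. The number was 93 in HB, where 57.1% of all genes had one, and again 93 in HE, where it was 59.9%. In HP it was 91, against 48.6%, and in MAC 87, against 48.7%. The MAC list was the longest of the 5. Leaving out sites narrower than their list's median, the number was 79 in both MES and MAC and lowest in HP, at 76. Over all 21774 protein-coding genes it was 9349 in MES and 8739 in MAC, and also lowest in HP, at 8214. In all 5 stages a promoter DHS was listed for 85 genes, or 85% (95% Wilson interval, 76.7 to 90.7%), against 42.0% of all genes. No stage had a site for 6 OXPHOS genes, while this was the case for 34.3% of all genes. The other 9 genes had a site in 1 to 4 stages, against 23.6% of all genes. Other groups that most cells use were close to this level: of 81 cytosolic ribosomal protein genes 76 had a site in all 5 stages, and of 78 mitochondrial ribosomal protein genes 69 did.

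**Figure D1:**
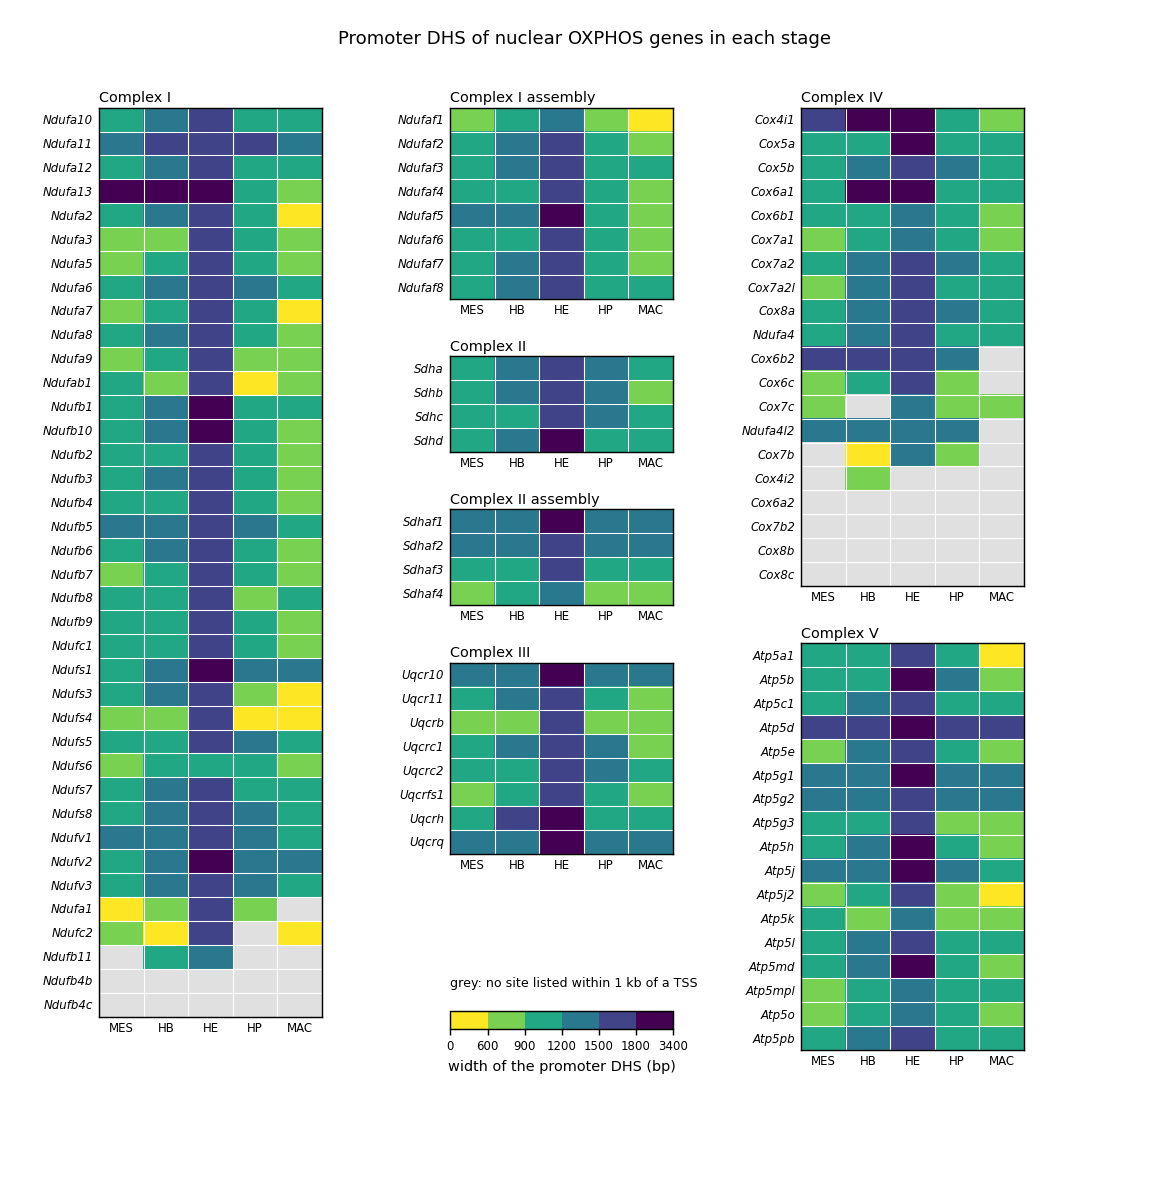
Width in bp of the promoter DHS of 99 of the 100 OXPHOS genes (rows) in each stage (columns), by complex, with genes in order of the number of stages. Grey cells have no site within 1 kb of a TSS: 3 rows of complex I carry some grey and 2 are all grey, and complex IV has 6 and 4 such rows, while the other panels have none.

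The 15 genes that lacked a site somewhere belonged to complexes I and IV. When a site counted only for the gene nearest to its middle, some genes of complexes II, III and V lacked one too. All 4 subunit genes of complex II, all 8 of complex III and all 17 of complex V had a promoter DHS in each stage. So did all 12 assembly factor genes, 8 of which (Ndufaf1 to Ndufaf8) serve complex I and 4 of which (Sdhaf1 to Sdhaf4) serve complex II. In complex I the count was 34 of 39. Of its 30 accessory subunits 27 had a site in every stage, and the 2 copies of Ndufb4 had none in any stage. In complex IV it was 10 of 20. Within it, 6 of 7 widely used isoforms, 3 of 5 other genes and 1 of 8 tissue-specific isoforms had a site in all 5 stages. Leaving out the tissue-specific isoforms and the gene copies, 84 of 90 genes had one throughout.

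**Figure D2:**
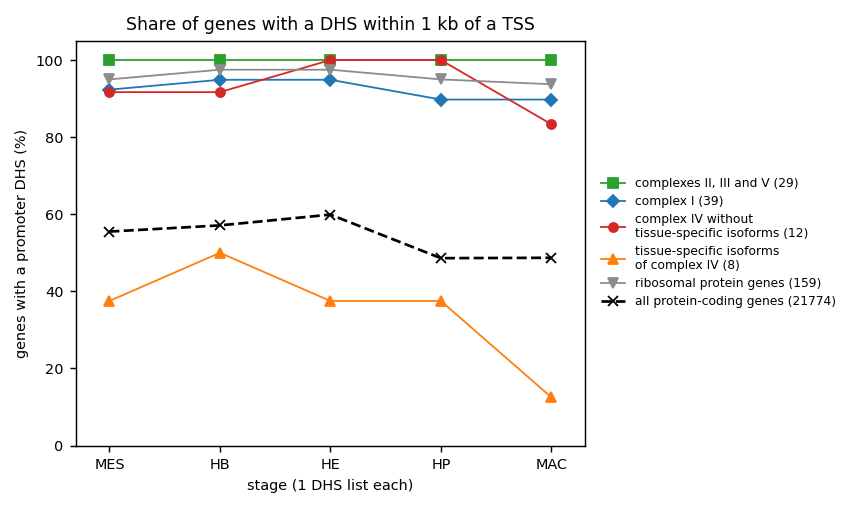
Percentage of genes with a DHS within 1 kb of a TSS in each stage, 1 list a stage and hence no error bars, with the number of genes of each group in brackets. Complexes II, III and V stay at 100%, the tissue-specific isoforms of complex IV lie between 12.5 and 50%, and all protein-coding genes lie between 48.6 and 59.9%.

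The tissue-specific isoforms fell into several kinds of pattern. A promoter DHS was listed for 3 of the 8 in each of MES, HE and HP, for 4 in HB and for 1 in MAC. Cox7a1, the form of subunit VIIa of heart and skeletal muscle, was the only one among them with a site in all 5 stages. Its site was 700, 1000, 1300, 1000 and 700 bp wide from MES to MAC, and in each stage it covered the TSS at chr7:30184171 and lay within 1 kb of no other protein-coding gene. The widths of its widely used partner Cox7a2 were 1100, 1200, 1600, 1200 and 1000 bp in the same order, so that the muscle form had the narrower site in every stage. Among the genes of complex IV with a site in all 5 stages Cox7a1 had the narrowest sites by the mean, 940 bp.

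Cox6b2, the testis form of subunit VIb, had a wide promoter DHS in 4 stages and none in MAC. Its widths from MES to HP were 1600, 1500, 1700 and 1300 bp. Each of these sites was wider than that of its partner Cox6b1, at 900, 900, 1400 and 1000 bp, and Cox6b1 had a site of 600 bp in MAC. In MAC the nearest site to Cox6b2 lay 12493 bp from its TSS.

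Cox4i2, the lung form of subunit IV and known to respond to low oxygen, had a promoter DHS in HB alone, a site of 700 bp at chr2:152753798-152754497. The 4 other lists had their nearest site between 9797 bp (HE) and 11692 bp (MAC) away. Its partner Cox4i1 had sites of 1700, 1900, 2100, 1100 and 800 bp from MES to MAC, the widest by the mean, 1520 bp, among the complex IV genes with a site in all 5 stages. That site also lies within 1 kb of the starts of Emc8 and Gm27021, and its middle is nearer to the TSS of another gene than to that of Cox4i1 in every stage but MAC.

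Ndufa4l2, a relative of Ndufa4 that is induced by low oxygen, had a promoter DHS of 1400 bp in each of MES, HB and HE and of 1200 bp in HP. These sites lie at a TSS of a predicted transcript at chr10:127509274, upstream of the TSS of the curated mRNA at chr10:127514939. Near the latter a site was within reach only in MES, 400 bp wide and 977 bp away. In MAC the nearest site was 1859 bp from a TSS, beyond the limit of 1 kb. A reach of 2 kb gave Ndufa4l2 a site in all 5 stages and changed no other OXPHOS gene, and a reach of 100 bp changed none. Ndufa4 itself had sites of 1000, 1200, 1700, 1100 and 1000 bp from MES to MAC.

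The other 4 tissue-specific isoforms had no promoter DHS in any list. Cox8b is the muscle form of subunit VIII, and its TSS at chr7:140900446 was 2813 bp from the nearest site in HB and 2581 bp in HE, but at least 8035 bp in the other 3 stages. A site within 3 kb was therefore listed in HB and HE only. For Cox6a2, the muscle form of subunit VIa, the distance was shortest in MAC at 14344 bp and longest in HP at 31111 bp. For the testis forms it was 20236 to 20361 bp at Cox8c and 152121 to 619741 bp at Cox7b2. Their partners Cox8a and Cox6a1 had a promoter DHS in every stage, of 1000 to 1600 bp at Cox8a and of 1000 to 2100 bp at Cox6a1. Thus, for 3 of the 4 isoform genes without a site the gene of the widely used form had one throughout, and only the partner of Cox7b2, the X-linked Cox7b, lacked a site in some stages.

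**Figure D3:**
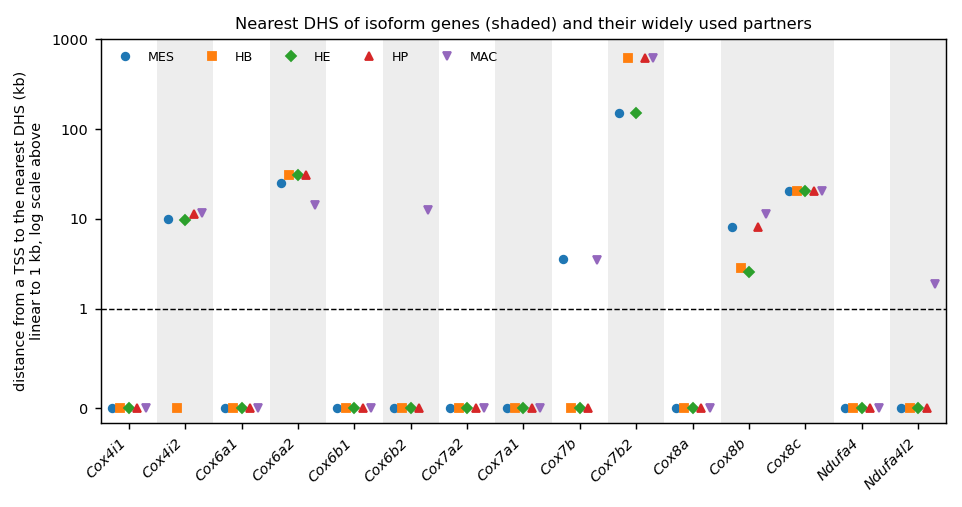
Distance in kb from a TSS to the nearest DHS for the 8 tissue-specific isoform genes (shaded) and their 7 widely used partners (white), linear up to 1 kb and logarithmic above, with a symbol for each stage and a dashed line at the reach of 1 kb. Cox7a1 lies at 0 in all 5 stages like the partners other than Cox7b, while Cox6a2, Cox7b2, Cox8b and Cox8c lie above 1 kb throughout.

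The widely used genes that lacked a site in some stage were few, and 3 of the 6 are the X-linked OXPHOS genes. Ndufb11, an accessory subunit of complex I, had a promoter DHS of 900 bp in HB and of 1400 bp in HE, and none in MES, HP and MAC, where the nearest site was between 40395 and 40520 bp away. Its site is shared with Rbm10, which starts in the opposite direction and is the nearer gene to the middle of the site in both stages. Cox7b had a site of 400 bp (HB), 1400 bp (HE) and 700 bp (HP), and none in MES and MAC, where the nearest was 3587 and 3462 bp away. Ndufa1 had sites of 500 bp (MES), 700 bp (HB), 1500 bp (HE) and 600 bp (HP), and none in MAC. In MAC none of the 3 X-linked genes had a promoter DHS, while 87 of 97 autosomal OXPHOS genes did. In all 5 stages 0 of 3 X-linked and 85 of 97 autosomal OXPHOS genes had a site. The X chromosome as a whole had fewer promoter DHSs: 213 of its 963 protein-coding genes (22.1%) had a promoter DHS in all 5 stages, against 43.5% of autosomal genes, and among genes with a CpG-rich promoter these shares were 52.3 and 73.4%. Slc25a5, an X-linked ADP/ATP carrier gene outside the symbol rule, had a site in all 5 stages. The part of the chromosome in the pattern of these 3 genes was not tested.

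The remaining 3 are autosomal. Cox7c, which encodes a small subunit of complex IV, had sites of 600 bp (MES), 1300 bp (HE), 800 bp (HP) and 600 bp (MAC) and none in HB, where the nearest site was 538497 bp away. This pattern, a site in all stages but HB, was found for 37 protein-coding genes (0.17%). Ndufc2, an accessory subunit of complex I, had sites of 700 bp (MES), 500 bp (HB), 1500 bp (HE) and 500 bp (MAC) and none in HP. Cox6c, a further small subunit of complex IV, had sites of 700 bp (MES), 900 bp (HB), 1500 bp (HE) and 800 bp (HP) and none in MAC. With Ndufa1, Ndufa4l2 and Cox6b2 it makes 4 genes that lacked a site in MAC alone, a pattern of 829 protein-coding genes (3.81%). At Ndufa1, Ndufb11, Ndufc2, Cox7b, Cox7c and Cox6c, the sites outside HE were between 400 and 900 bp wide. Those in HE were 1300 to 1500 bp wide. Sites in HE were wide at most genes, and these were narrower than the OXPHOS median there, 1600 bp.

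The widths of the sites were compared next. The promoter DHSs of OXPHOS genes had median widths of 1000, 1200, 1600, 1100 and 800 bp from MES to MAC. Over all protein-coding genes with a promoter DHS the medians were 1000, 1200, 1600, 1100 and 900 bp, the same in 4 stages and 100 bp more in MAC. They were wider than most sites of their lists, as between 67.0% (HP) and 74.8% (HE) of all sites were narrower than the median OXPHOS site of their stage. Among the 85 genes with a site in all 5 stages, HE had the widest site at every gene with no ties, while it had the widest site or tied for it at 96% of the 9155 protein-coding genes of this kind. MAC had the narrowest or tied for it at 68 of the 85, or 80%, against 77.5% of all such genes. From HP to MAC the site was narrower at 69 genes, equal at 7 and wider at 9, with a median change of -200 bp. All genes of this kind were close to this, with 7055 of 9155 narrower, 1127 wider and the same median change.

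**Figure D4:**
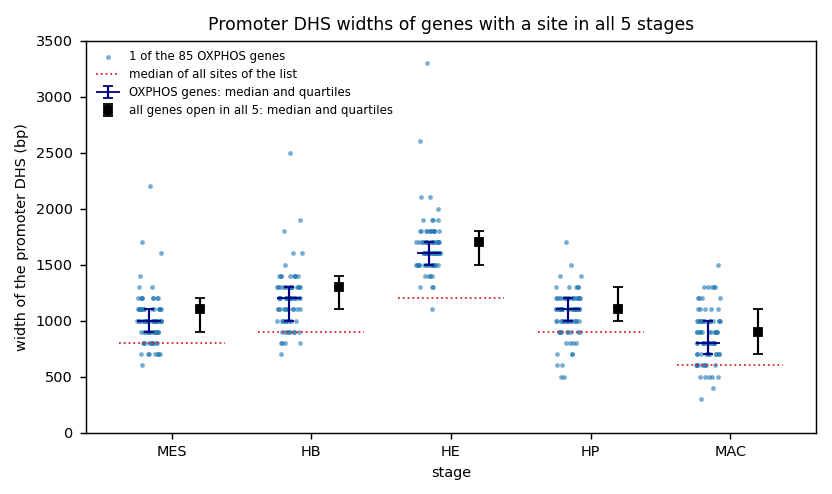
Width in bp of the promoter DHS of the 85 OXPHOS genes with a site in all 5 stages (points), with their median and quartiles (blue bars), the median and quartiles of the 9155 protein-coding genes of this kind (black squares) and the median of all sites of the list (dotted line). The blue medians are highest in HE, at 1600 bp, and lowest in MAC, at 800 bp, and lie at or 100 bp below the black ones in each stage.

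The complexes had similar median widths, which ran from 950 to 1100 bp in MES, from 1550 to 1700 bp in HE and from 800 to 1000 bp in MAC among the 5 complexes. Among the complex I genes with a site in all 5 stages, the widest sites by the mean over the stages were at Ndufa13, an accessory subunit also known as GRIM-19, with 2200, 2500, 2600, 1000 and 700 bp from MES to MAC. This gene has TSSs at chr8:69902020 and chr8:69902558. In MES, HB and HE a single site covered both. HP and MAC had 2 separate sites within reach, of 700 and 1000 bp in HP and of 700 bp each in MAC. In every stage a site of Ndufa13 was also within 1 kb of the start of Tssk6. Among the same complex I genes, the narrowest by the mean, 840 bp, was Ndufs4, an accessory subunit, with 800, 800, 1600, 500 and 500 bp. In complex II the membrane anchor gene Sdhd was widest by the mean with 1100, 1300, 1800, 1100 and 900 bp, and Sdhb, the iron-sulfur subunit, was narrowest by the mean with 1000, 1200, 1500, 1200 and 600 bp. In complex III the hinge protein gene Uqcrh had the widest site of all OXPHOS genes, 3300 bp in HE, beside 900 to 1500 bp in the other 4. These sites are shared with Lrrc41, whose TSS is the nearer to their middle in all 5 stages. Uqcrb was the narrowest there with 800, 700, 1500, 700 and 600 bp.

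In complex V the widest sites by the mean, 1640 bp, were those of Atp5d, which encodes the delta subunit of the F1 head. They were nearly constant, at 1600, 1600, 1800, 1700 and 1500 bp, and lay within 1 kb of the start of Cbarp in every stage. The sites of Atp5k, the small e subunit of the Fo part, were the narrowest by the mean, 860 bp, at 900, 800, 1300, 600 and 700 bp. The 6 genes of F1 and the 11 of Fo had the same median in HE, 1700 bp, and medians of 750 and 900 bp in MAC. Among the assembly factors, Sdhaf1 was wide in all stages with 1300, 1300, 1800, 1400 and 1300 bp, and Sdhaf4 was narrower with 700, 1000, 1300, 800 and 800 bp. Of the complex I factors, Ndufaf1 had the narrowest sites by the mean, 900 bp, with 800, 1100, 1400, 800 and 400 bp. Ndufaf2, Ndufaf3, Ndufaf5 and Ndufaf8 shared the highest mean, 1200 bp. Across the 85 genes, the widths in 2 stages had a Spearman rho between 0.312 (HE and HP) and 0.75 (MES and HB) over the 10 pairs of stages, compared with 0.397 (HE and MAC) to 0.795 (MES and HB) across all 9155 genes. For HE the rho was 0.606, 0.693, 0.312 and 0.366 with MES, HB, HP and MAC, beside 0.465, 0.531, 0.475 and 0.397 across all genes. These correlations are over genes that share their 2 lists and whose widths come in steps of 100 bp.

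Most promoter DHSs had their middle near the start of the gene, within 250 bp of the TSS at between 79.6% (HE) and 92.3% (MES) of the OXPHOS genes with a site, against 65.1% (HE) to 85.1% (HP) of all genes. The widest site within reach covered a TSS at all 91 genes with a site in MES, 92 of 93 in HB, all 93 in HE, 90 of 91 in HP and all 87 in MAC. For all protein-coding genes the share was 89.8 to 94.3%. In MES the median OXPHOS site reached 484 bp upstream and 469 bp downstream of the TSS. In HE it reached 756 bp upstream and 841 bp downstream, and in MAC 447 and 405 bp. Ndufc2 in HB was the gene whose site missed the TSS by 56 bp, and Ndufa13 in HP had its wider site 185 bp from a TSS, while its other site, of 700 bp, covered one.

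Many of these sites lay between 2 genes. A protein-coding gene that starts within 1 kb in the opposite direction was found for 36 of the 100 OXPHOS genes, against 11.1% of all protein-coding genes. Examples, picked after the partners were seen, are as follows. Ndufb5 starts opposite Mrpl47 and Ndufs6 opposite Mrpl36, both genes of mitochondrial ribosomal proteins, and Sdhd opposite Timm8b, a gene of protein import. Atp5j starts opposite Gabpa, which encodes a subunit of the ETS factor also called NRF-2. Ndufa7 starts opposite Rps28 of the cytosolic ribosome and Ndufs1 opposite Eef1b2, a translation factor gene. Of the 36 genes, 35 had a promoter DHS in all 5 stages and the other was Ndufb11, while for all genes with such a partner the share was 85.9%. Of the 64 OXPHOS genes without one, 50 had a site in all 5 stages, against 36.6% of all genes of that kind. No site was within reach of 2 OXPHOS genes. When a site was counted only for the gene whose TSS was nearest to its middle, 27 OXPHOS genes lost it in some or all stages. All 27 had a partner of this kind. A loss here requires another gene with a nearer start, so a close partner was nearly given in advance. No share over all genes is given for this count.

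The sequences of the promoters were then examined in windows from 250 bases before to 50 bases after the start, of which the RefSeq table used here held 87 for 82 of the OXPHOS genes and 21263 over all protein-coding genes. A window was called CpG-rich if its GC share was at least 0.5 and the ratio of observed to expected CpG at least 0.6. This was so for 68 of the 87 OXPHOS windows, 78.2% (95% Wilson interval, 68.4 to 85.5%), and for 45.1% of all windows. Among windows of this kind, 67 of the 68 belonged to OXPHOS genes with a DHS in all 5 stages, against 73.4% over all genes, and the exception was Ndufa1. Of the 19 OXPHOS windows that were not CpG-rich, 11 belonged to genes with a DHS in all 5 stages (57.9%), against 21.8% of all such windows. These genes were Atp5j2, Atp5l, Cox7a1, Ndufa3, Ndufb2, Ndufb7, Ndufs4, Ndufs8, Sdhb, Uqcr10 and Uqcrh. The isoform pairs printed above differed in their CpG ratio. Cox7a2 had a GC share of 0.567 and a CpG ratio of 0.833, and Cox7a1 of 0.53 and 0.333. Cox8a had 0.56 and 0.842, and Cox8b, with no DHS, 0.483 and 0.115. Cox7b had 0.433 and 0.368, and its testis form Cox7b2, with no DHS, 0.487 and 0.564, so this pair went the other way. Cox6b1 had 0.53 and 0.807, and Cox6b2 0.557 and 0.432.

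NRF1 is a factor known for its sites at nuclear genes of the respiratory chain. Its motif, GCGCNTGCG, was found on either strand in 29 of the 87 OXPHOS windows, 33.3% (24.3 to 43.8%), against 8.61% of all windows. Within CpG-rich windows alone it was in 39.7% of OXPHOS windows and 17.2% of all. Of the mitochondrial ribosomal protein windows 24% held it, and of the cytosolic ones 11%. By complex, it was in 10 of 36 windows of complex I, 2 of 3 of complex II, 3 of 5 of complex III and 9 of 18 of complex V, but in 1 of 14 of complex IV, at Cox6a1. The YY1 motif, AANATGGCG, was in 13.8% of OXPHOS windows and 3.12% of all, and the ribosomal groups had like shares, 14.7% of the mitochondrial and 11% of the cytosolic ones. In complex I the YY1 motif was in 7 of the full windows, Ndufb11 among them, and in complexes II, III and IV in none. With the 250 bases before the start alone, the NRF1 share was 21.8% against 7.09% of all and the YY1 share 4.6% against 1.34%. The ERR motif, TNAAGGTCA, bound by estrogen-related receptors, was in 3 windows (3.45%), at Sdhd, Atp5g3 and Ndufb4, against 1.03% of all windows and 4.11% of the cytosolic and 0 of the 75 mitochondrial ribosomal protein windows. Each of these 3 genes also held the NRF1 motif.

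For the other 4 motifs the shares at OXPHOS genes were closer to those over all windows. The ETS motif, CCGGAAGT, was in 5.75% of OXPHOS windows, at Atp5h, Cox8a, Ndufs3, Uqcr11 and Uqcrh, and in 5.15% of all. Within CpG-rich windows it was in 5.88% against 9.07%, and the ribosomal groups held it more often, at 16% (mitochondrial) and 16.4% (cytosolic). The SP1 motif, GGGCGG, was in 46% against 46.2%, and within CpG-rich windows in 52.9% against 76.8%. CCAAT was in 41.4% against 38.2% and TATAAA in 11.5% against 12.6%. At least 1 of the NRF1, ETS, YY1 and ERR motifs was in 43 of the 87 windows, and 6 windows held 2 of them. These 2 counts were not set against all windows. None of the 7 motifs contains another, and matches that overlap were each counted. A match is a description of letters and does not show that a factor was bound.

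**Figure D5:**
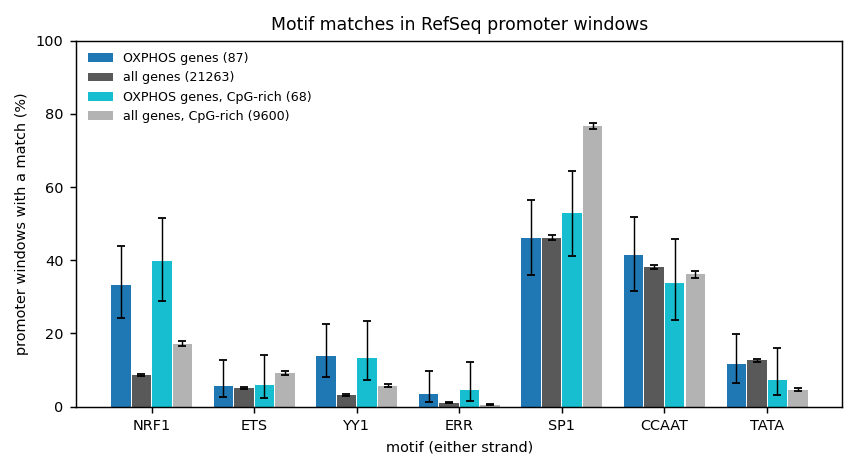
Percentage of RefSeq promoter windows with a match to each of 7 motifs on either strand, for OXPHOS genes and for all protein-coding genes, and for the CpG-rich windows of each, with the number of windows in brackets and 95% Wilson intervals as error bars. NRF1, YY1 and ERR (3 OXPHOS windows) are the motifs with the higher bars for OXPHOS genes both over all windows and over CpG-rich ones, and SP1 is lower among the CpG-rich.

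Beyond the promoters, few DHSs lay near OXPHOS genes. Sites beyond 1 kb from any protein-coding TSS and up to 20 kb from the nearest, where that belonged to an OXPHOS gene, numbered 22, 24, 28, 13 and 37 from MES to MAC. This is 0.13 (HP) to 0.37 (MAC) sites per gene, against 0.19 to 0.591 over all protein-coding genes, and it was below the figure for all genes in each of the 5 stages. The share of OXPHOS genes with any such site was also lower in 4 stages, for example 27% against 33% in MAC, but was 19% against 18.7% in MES. Summed over the stages, Ndufa13 had 10 such sites, Sdhb 9, and Cox4i1, Cox4i2, Sdhaf1 and Uqcrfs1 7 each. Cox8b, without a promoter DHS, had 6 sites, with 2 each in HB and HE, 1 each in MES and HP and 0 in MAC. At Cox4i2, where only HB had a promoter DHS, there was 1 in MES, 2 each in HB, HE and HP and 0 in MAC.

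Other genes of the pathway, which the symbol rule does not take, had a similar picture. Of 50 such genes, 42 had a promoter DHS in all 5 stages. All 17 assembly factor genes of complex IV, among them Surf1, Sco1 and Sco2, and all 6 of complex III did. Of the 6 assembly factor genes of complex I on the list, 5 did, and Nubpl lacked a site in MAC. Cycs, which encodes the cytochrome c of somatic cells, had sites of 1200, 1300, 1700, 1200 and 1100 bp, whereas its testis form Cyct had none. Similarly, Slc25a4 and Slc25a5 had a site in all stages and the testis form of the ADP/ATP carrier, Slc25a31, in none. The 4 genes of ATP synthase assembly and inhibition differed from the subunits of that complex, as only Atpaf2 had a site in all 5 stages. Atpaf1 had one in MES, HB and HE, and Tmem70 in all but MAC. Atpif1, which encodes the inhibitor of the ATP synthase, had none in MES and HB and sites of 900 bp (HE), 200 bp (HP) and 300 bp (MAC).

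Among the 12 genes of regulators of the nuclear and mitochondrial programme, 10 had a promoter DHS throughout. These were Nrf1, Gabpa, Gabpb1, Esrra, Yy1, Pprc1 and the genes of mitochondrial transcription Tfam, Tfb1m, Tfb2m and Polrmt. The genes of the coactivators PGC-1 alpha and PGC-1 beta were the other two. Ppargc1a had sites of 900 bp (MES), 1100 bp (HB), 1000 bp (HE) and 600 bp (MAC) and none in HP. Ppargc1b had sites of 900 bp (MES), 800 bp (HB), 1800 bp (HE) and 400 bp (HP) and none in MAC.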

How the data were processed

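The authors trimmed the DNaseI-seq reads with CutAdapt, aligned them to mm10 with Bowtie, kept unique reads, used Picard against duplicates and DFilter to call sites (bins of 100 bp), with versions not given in the sources used here. The submitters' processing notes also name HOMER. The deposited lists hold start and end positions in base pairs and no score, so the precision of a site is unknown. TSSs were those of all transcripts of RefSeq protein-coding genes (GRCm38.p6), 58496 positions. A site counted for a gene with its edge within 1 kb, and the widest was taken. The matching was tested on simulated data, where all 125 of 125 sites within reach were recovered. The simulated sites lay at genes far from any other, so sites shared between genes were not tested. Named genes were the isoforms and their partners, all genes without a site in every stage, and the widest and narrowest of each complex. With 1 list per stage no test was made. The values of 1 gene are not reported here, though it enters the counts. Members and lists were chosen with earlier results of these data known. Alternatives covered the reach, TSS set, gene assignment, site width and subunits alone. Python 3.11.15 and pandas 2.3.3 were used.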

Additional observations from a re-analysis of the deposited data

Results flagged for a closer look

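The HP list held 4 sites on the mitochondrial chromosome, which encodes the subunits of OXPHOS that the nuclear genes complement, while the 4 other lists held 0. Whether those lists were filtered for this chromosome is not stated in the sources used here, so their 0 cannot be read as a lack of signal. This chromosome belongs to no comparison above, and the sites were singled out because no other list had any. They lie at M:2-1501, M:2502-4501, M:10902-12601 and M:14302-16201 and cover 7100 of 16299 bp (43.6%). Of the 13 protein-coding genes of the chromosome they overlap 5, namely ND1, ND2, ND4 and ND5 of complex I and CYTB of complex III.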

How the results depend on the processing

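Of 472 recomputed values, 460 stayed within the limit set for them (1.5 times for a count or width, the 95% interval for a share of windows). The number of genes with a promoter DHS in each stage and in all 5 stages stayed within it under every alternative tried. This limit is wide, as the number in all 5 stages, 85, became 59 when only the nearest gene was counted. Without sites narrower than their list's median it became 66, against 6773 of all genes. The number with a site in 1 to 4 stages, 9, became 27 when only the gene nearest to a site was counted, 27 without sites narrower than their list's median, and 21 when every list was cut to its widest sites, as many as HP holds. Fewer sites counted in each of these 3. The number with no site, 6, became 14 when only the nearest gene was counted. In the same setting the complex I assembly factors with a site in HE fell from 8 to 5 and the complex II subunits in HP from 4 to 2. A reach of 2 kb brought the tissue-specific isoforms in MAC from 1 to 2, through Ndufa4l2, and with curated TSSs alone Ndufa4l2 had a site in MES only. Stricter limits for CpG-rich windows gave 59.8%, against 38% of all windows. Within the 250 bases before the start the NRF1 share was 21.8% and the YY1 share 4.6%, against 7.09 and 1.34% of all windows. Counting sites up to 50 kb gave 21 in HP and 62 in MAC, or 0.21 and 0.62 per gene against 0.279 and 0.908 over all genes. No paired analysis was possible because each stage is a single list. The lists carry no read depth, which limits what the lack of a site can say.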
